A study of Homo sapiens with 4 samples.

Results

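The respiratory chain and ATP synthase of human mitochondria are built from subunits of both genomes. Transcripts of these subunits were compared between treated and untreated cells labelled as liver cancer lines. Members were taken by gene name from a table of 19739 coding genes: mitochondrially encoded MT-ND, MT-CO, MT-CYB and MT-ATP genes, and nuclear genes named NDUFA, NDUFB, NDUFC, NDUFS, NDUFV, SDHA to SDHD, UQCR, CYC1, COX4 to COX8 and ATP5. The names gave 103 members, 13 mitochondrial and 90 nuclear. All 13 mitochondrial members and 84 of the 90 nuclear members reached 1 FPKM (fragments per kilobase of transcript per 1000000 fragments, a level corrected for length) in at least 1 of 4 libraries. By name, complex I held 39 nuclear and 7 mitochondrial members, complex II 4 nuclear members, complex III 10 and 1, complex IV 17 and 3, and complex V (ATP synthase) 20 and 2.

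The 4 libraries were labelled as the human liver cancer lines HepG2 and Huh7, both grown in serum-containing DMEM. From each line there was 1 library without treatment and 1 after 24 h of treatment, which paired RSL3@O2-ICG NBS with low-frequency ultrasound, so no value has a replicate or an SD. RSL3 is an inhibitor of the lipid peroxide-reducing enzyme GPX4 and induces ferroptosis, and ICG is commonly the dye indocyanine green. Untreated cells were the only controls analysed here, so the effects of RSL3, carrier, oxygen and ultrasound cannot be told apart. In bulk RNA, a change in the mix of live and dying cells and a change of RNA per cell cannot be told apart either. Libraries held an estimated 22900000 to 26400000 fragments, with 11156 to 11715 coding genes at 1 FPKM or more. Of 10 hepatocyte markers, 0 reached 1 FPKM in either library labelled HepG2 (summed level 0.528 and 0.435 FPKM, with ALB listed at 0 in both), while all 10 did in both Huh7 libraries (1696 and 1341 FPKM). HepG2 is known to make albumin and other secreted liver proteins, so these libraries go against their label and are called HepG2-labelled throughout. Of 7 fibroblast and stellate markers, 3 reached 1 FPKM in each HepG2-labelled library and 2 in each Huh7 library (summed 8.87 and 9.50 FPKM, and 38.0 and 10.3 FPKM). Endothelial markers reached 1 FPKM in 0, 1, 0 and 0 of 5 and blood markers in 0, 0, 1 and 1 of 5, in the order HepG2-labelled untreated and treated, Huh7 untreated and treated. Their part in the values below was not tested.

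Electrons from NADH enter the chain at complex I and those from succinate at complex II, pass through ubiquinone, complex III and cytochrome c to complex IV, which reduces oxygen, and the proton gradient so built drives complex V. The mitochondrial genome is transcribed from both strands as long precursors that are cut into separate messages, whereas each nuclear subunit gene has a promoter of its own. Among the regulators of those promoters are NRF1, the ETS-family factor GABP and YY1, and the nucleus also supplies the mitochondrial polymerase POLRMT and the factors that copy, cut and stabilise mitochondrial RNA.

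A stretch of the mitochondrial genome and 3 nuclear promoters show how differently the members are laid out. MT-ATP8 and MT-ATP6 lie on 1 message and share 46 bases, shown because reads from them cannot be assigned to either gene and make up 22.2% of MT-ATP8. The shared stretch is at chrMT:8527-8572 on the forward strand (GENCODE 29 transcripts, GRCh38), and capitals mark the first codon of MT-ATP6 and the last codon of MT-ATP8.
MT-ATP8 and MT-ATP6: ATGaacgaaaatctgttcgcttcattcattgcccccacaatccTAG

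Of the 90 nuclear members, 68 matched a RefSeq promoter (GRCh38.p14, 250 bases before to 50 after the start). The core of the NRF1 motif, CGCATGCG, stood in 10 of them on either strand (14.7%), against 2.89% of 14868 coding promoters and 2.19% of all 27305. The ETS motif CCGGAAGT stood in 9 (13.2%, against 6.37% and 4.44%), and the YY1 motif AAGATGGC in 11 (16.2%, against 4.0% and 3.03%). These motifs share no full copy of each other, and a match is a description of letters, not of a bound site. The 250 bases before the start are shown 5′ to 3′ on the gene's forward strand for SDHD, which holds an NRF1 and an ETS match, for ATP5F1C, which holds an NRF1 match, and for ATP5MC1, the c ring gene with the lowest ratios, which holds none. Capitals mark the matches.
SDHD, chr11:112086623-112086872: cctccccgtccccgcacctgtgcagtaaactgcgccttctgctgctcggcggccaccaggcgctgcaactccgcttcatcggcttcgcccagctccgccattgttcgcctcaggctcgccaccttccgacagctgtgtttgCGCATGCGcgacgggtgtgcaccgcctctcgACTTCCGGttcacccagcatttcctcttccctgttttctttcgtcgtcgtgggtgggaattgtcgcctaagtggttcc
ATP5F1C, chr10:7787927-7788176: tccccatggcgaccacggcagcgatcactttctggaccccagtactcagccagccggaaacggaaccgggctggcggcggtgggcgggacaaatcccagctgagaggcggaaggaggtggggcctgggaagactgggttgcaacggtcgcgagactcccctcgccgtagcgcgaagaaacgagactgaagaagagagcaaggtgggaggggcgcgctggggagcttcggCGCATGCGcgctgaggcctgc
ATP5MC1, chr17:48892537-48892786: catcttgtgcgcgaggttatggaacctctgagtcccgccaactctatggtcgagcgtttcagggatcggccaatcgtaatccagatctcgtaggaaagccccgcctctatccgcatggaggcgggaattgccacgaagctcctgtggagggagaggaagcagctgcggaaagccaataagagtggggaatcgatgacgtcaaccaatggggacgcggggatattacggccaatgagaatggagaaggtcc

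The mitochondrial members were lower in the treated than in the untreated HepG2-labelled library and higher in the treated than in the untreated Huh7 library, whereas the nuclear members were mostly lower in both. In HepG2-labelled cells 12 of 13 mitochondrial members were lower after treatment (11 where libraries were scaled to equal FPKM sums, which turned MT-ND5), with a median log2 ratio, log2((treated FPKM + 1)/(untreated FPKM + 1)), of −0.56. In Huh7 12 of 13 were higher, with a median of 0.37. The nuclear members had medians of −0.23 in HepG2-labelled cells and −0.27 in Huh7, with 66 of 84 and 68 of 83 measured members lower (a gene counts as measured in a line where 1 of its 2 libraries reached 1 FPKM). Over all measured genes the medians were 0.09 and 0.10. No test within a line is possible with 1 library a group, and the difference between the lines was not tested.

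Mitochondrial transcripts summed to 3702 FPKM in untreated and 2938 FPKM in treated HepG2-labelled cells, a ratio of 0.794, and to 3403 and 4316 FPKM in Huh7, a ratio of 1.27. Nuclear members summed to 6938 and 5769 FPKM in HepG2-labelled cells, and to 7564 and 6214 FPKM in Huh7, ratios of 0.832 and 0.822. The mitochondrial sum was thus 0.534 and 0.509 of the nuclear sum in untreated and treated HepG2-labelled cells, against 0.45 and 0.694 in Huh7. The balance of the 2 genomes thus lay further towards mitochondrial transcripts in treated than in untreated Huh7 cells. In HepG2-labelled cells the sums, led by MT-CO1, differed little in balance, but over genes the mitochondrial median log2 ratio was below the nuclear one, a difference of −0.33. Mitochondrial members made up 1.05%, 0.859%, 0.92% and 1.14% of all coding FPKM in the 4 libraries, and how RNA was selected for sequencing is not stated in the sources used here. MT-CO1 alone held 51.8% to 54.0% of the mitochondrial sum, and the 3 MT-CO genes together 82.0% to 86.3%. The other 10 genes summed to 561 and 401 FPKM in HepG2-labelled cells (ratio 0.716) and to 613 and 735 FPKM in Huh7 (ratio 1.20), so the direction in each line was not that of the MT-CO genes alone.

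**Figure D1:**
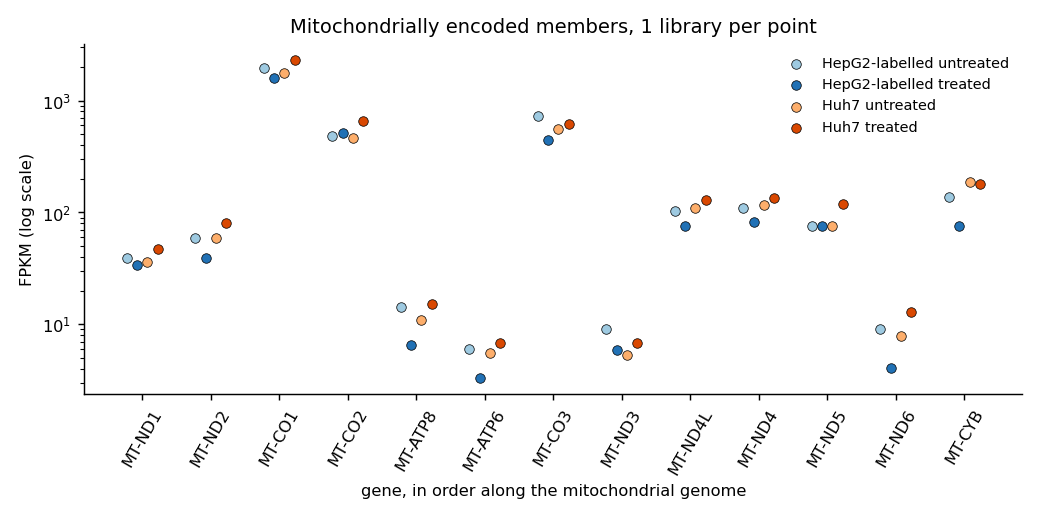
FPKM of the 13 mitochondrially encoded members on a log axis, with genes placed by their order along the mitochondrial genome and 1 point per library. The points of treated Huh7 (dark orange) are the highest of the 4 for 10 of the 13 genes, and MT-CO1 stands highest in every library.

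In complex IV, MT-CO1, the catalytic subunit that holds the heme-copper centre, was at 1938 and 1585 FPKM in untreated and treated HepG2-labelled cells and at 1764 and 2310 FPKM in Huh7. MT-CO2, which takes electrons from cytochrome c, was at 481 and 511 FPKM and at 465 and 650 FPKM. MT-CO3, the third core subunit, was at 722 and 440 FPKM and at 561 and 620 FPKM. The log2 ratios were thus −0.29, 0.09 and −0.71 in HepG2-labelled cells and 0.39, 0.48 and 0.14 in Huh7, and MT-CO2 was the mitochondrial gene that was higher after treatment in both lines. In the HepG2-labelled pair the 3 genes of the same complex therefore did not share a ratio.

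Of the 7 mitochondrial subunits of complex I, which form its proton-pumping membrane arm, MT-ND4 was at 109 and 81.8 FPKM in HepG2-labelled cells and 116 and 136 FPKM in Huh7. MT-ND4L, which is made on the same message as MT-ND4, was at 103 and 75.1 FPKM and at 109 and 130 FPKM, so these 2 genes had like levels and like ratios (−0.41 and −0.44, and 0.23 and 0.25). MT-ND5 was at 76.2 and 76.0 FPKM in HepG2-labelled cells, a log2 ratio of −0.0027, and at 75.5 and 120 FPKM in Huh7, a ratio of 0.65 (0.66 without a pseudocount, where MT-ND6 was higher at 0.71). MT-ND1 was at 38.9 and 33.6 FPKM and at 36.4 and 47.4 FPKM (log2 ratios −0.21 and 0.37). MT-ND2 was at 59.2 and 39.1 FPKM and at 59.4 and 80.3 FPKM (−0.59 and 0.43). All 7 genes of this complex were lower in treated HepG2-labelled and higher in treated Huh7 cells, MT-ND5 in HepG2-labelled cells by a margin within counting error. MT-ND3 was low in every library, at 9.15 and 5.87 FPKM and at 5.29 and 6.78 FPKM (−0.56 and 0.31). MT-ND6, the only mitochondrial member transcribed from the other strand, was at 9.0 and 4.08 FPKM and at 7.89 and 12.9 FPKM (−0.98 and 0.64). These values had the same directions as the rest of complex I. Whether reads kept their strand is not stated in the sources used here. Both strands are transcribed as long precursors, so RNA of the opposite strand may be counted in MT-ND6.

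MT-CYB, the cytochrome b of complex III, was at 137 and 76.0 FPKM in HepG2-labelled cells and at 187 and 181 FPKM in Huh7 (log2 ratios −0.84 and −0.05). It was the mitochondrial gene that was not higher in treated Huh7 cells. In complex V, MT-ATP8 was at 14.4 and 6.54 FPKM and at 11.0 and 15.3 FPKM (−1.03 and 0.44), the only mitochondrial gene past 2-fold with a pseudocount of 1 and 2.04-fold lower in treated HepG2-labelled cells. Without a pseudocount the log2 ratio of MT-ND6 there was −1.14, like that of MT-ATP8 (−1.14), and with a pseudocount of 0.1 both were past 2-fold, which made 4 members lower in place of 3. MT-ATP6, the proton channel subunit, was at 5.98 and 3.29 FPKM and at 5.56 and 6.86 FPKM (−0.70 and 0.26), although it lies between MT-CO2 and MT-CO3, which stood at 440 FPKM or more.

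The inferred fragments behind these values ran from 31 (MT-ATP8 in treated HepG2-labelled cells) to 81503 (MT-CO1 in treated Huh7), with each FPKM turned into fragments by the inferred depth and transcript length. Exact 95% counting intervals of the FPKM ratio without a pseudocount lay below 1 for 11 genes, above 1 for MT-CO2 and around 1 for MT-ND5 in HepG2-labelled cells. In Huh7 they lay above 1 for 9 genes and around 1 for MT-ATP8, MT-ATP6, MT-ND3 and MT-CYB. For MT-ATP8 the log2 interval ran from −1.80 to −0.52 in HepG2-labelled cells and from −0.04 to 0.99 in Huh7. These intervals cover counting error only, and not the spread between cultures. The order of the 13 genes by level was nearly the same in all libraries, with Spearman correlations of 0.951 to 0.995 over 13 genes, which share the libraries and the gene lengths. Nuclear copies could take reads from these genes: the share of a gene's 50-base windows found unchanged in an annotated nuclear transcript was 49.5% for MT-CO1, 46.7% for MT-ATP6, 43.6% for MT-ND2, 1.19% for MT-CYB, and 0 for MT-ND3 and MT-ND4L. Level and that share had Spearman correlations of 0.135 to 0.223 over the 13 genes, and the part of the copies in the levels was not tested.

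**Figure D2:**
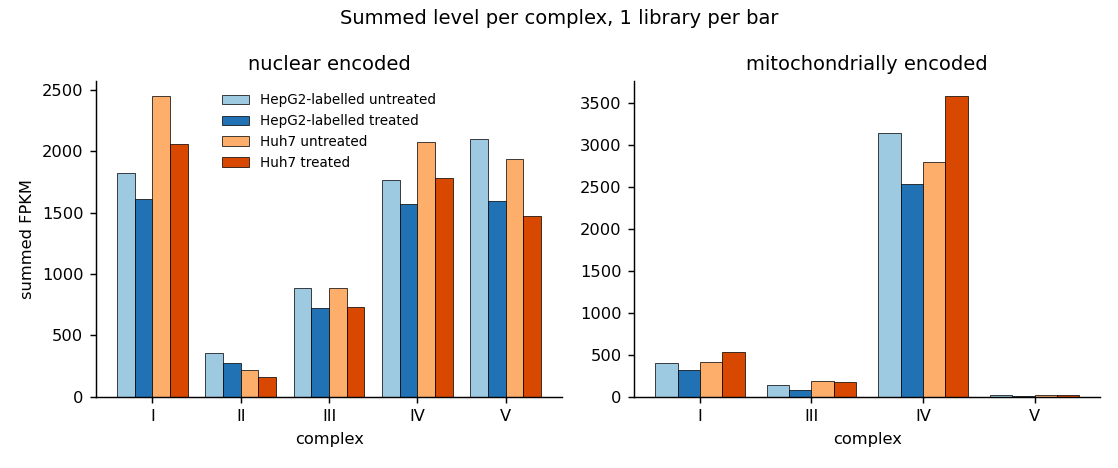
Summed FPKM of the members of each complex, nuclear encoded on the left and mitochondrially encoded on the right, with 1 bar per library and separate axes from 0. Nuclear sums are lower in the treated library of both lines for all 5 complexes, while mitochondrial sums of complexes I, IV and V are lower in treated HepG2-labelled and higher in treated Huh7 cells.

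Past 2-fold there were few members in either line. The share of members lower was near that of all genes, and the share higher was below it. In HepG2-labelled cells 2 of 97 members were higher and 3 lower, where 6.7% of all 11843 measured genes were higher and 2.43% lower. In Huh7 0 of 96 were higher and 2 lower, where 3.88% of 11945 genes were higher and 2.19% lower. At 1.5-fold, 4 members were higher and 15 lower in HepG2-labelled cells (background 19.2% and 8.76%), and 4 higher and 9 lower in Huh7 (15.4% and 7.63%). The members past 2-fold other than COX6B2 and MT-ATP8 are listed at chr19:19515736-19529054 (NDUFA13), chr2:42333546-42425088 (COX7A2L), chr16:85778627-85807044 (COX4I1), chr14:92116122-92162225 (NDUFB1) and chr7:99448475-99466331 (ATP5MF). These are the authors' listed positions, and for NDUFB1 and COX4I1 an end lies over 1000 bases from GENCODE 29 (GRCh38). Of the members past 1.5-fold in HepG2-labelled cells, the 15 lower ones held 6 of the 13 mitochondrial genes and 6 nuclear members of complex V. No mitochondrial gene was lower by 1.5-fold in Huh7.

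Levels over both lines were also fitted with limma on log2(FPKM + 1), with line as a block. The treatment term is the average change over both lines, so opposite changes cancel in it and add to the residual. For treatment, 0 of 13030 genes passed an adjusted p of 0.05 in either direction (percent called 0), so no member did. At an unadjusted limma p under 0.05 there were 1041 of 13030 genes higher and 493 lower. Of the 97 members tested, 1 was higher and 9 lower, all nuclear. Both directions together held 10.3% of members and 11.8% of all genes. This pooled share hides that the members were mostly lower, whereas all genes were mostly higher. The lowest adjusted p of a member was 0.212, for ATP5MF. For mitochondrial genes the lowest limma adjusted p was 0.498. Of these 13 genes, 11 were lower in HepG2-labelled and higher in Huh7 cells. For them the fit cannot tell opposite changes from no change, so no conclusion on either line is drawn from it.

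Among nuclear members, 58 of the 83 measured in both lines (69.9%) were lower after treatment in both, against 23.3% of all 10758 genes measured in both lines. By contrast 11 of 13 mitochondrial genes were lower in HepG2-labelled and higher in Huh7 cells, a pattern of 21.0% of all genes and of 8 of 83 nuclear members. Abundant genes were lower after treatment more often than others: the ratio and the untreated FPKM had Spearman correlations of −0.39 and −0.36 across all genes, and of −0.35 and −0.24 across nuclear members, values that share the untreated library. Of genes at 20 FPKM or more in both untreated libraries, 63 were nuclear members, with medians of −0.28 and −0.29 and 50 (79.4%) lower in both lines. The other 2315 such genes had medians of −0.12 and −0.12, with 45.6% lower in both. The level of the members therefore moved with their ratio, and its part in the result was not tested. Nuclear members also had shorter transcripts, with a median longest transcript of 1583 and 1582 bases against 3634 for all genes. Ratio and length had Spearman correlations of 0.0028 in HepG2-labelled cells and 0.14 in Huh7 across all genes. Across nuclear members they were −0.09 and 0.10, and the part of length was not tested either.

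**Figure D3:**
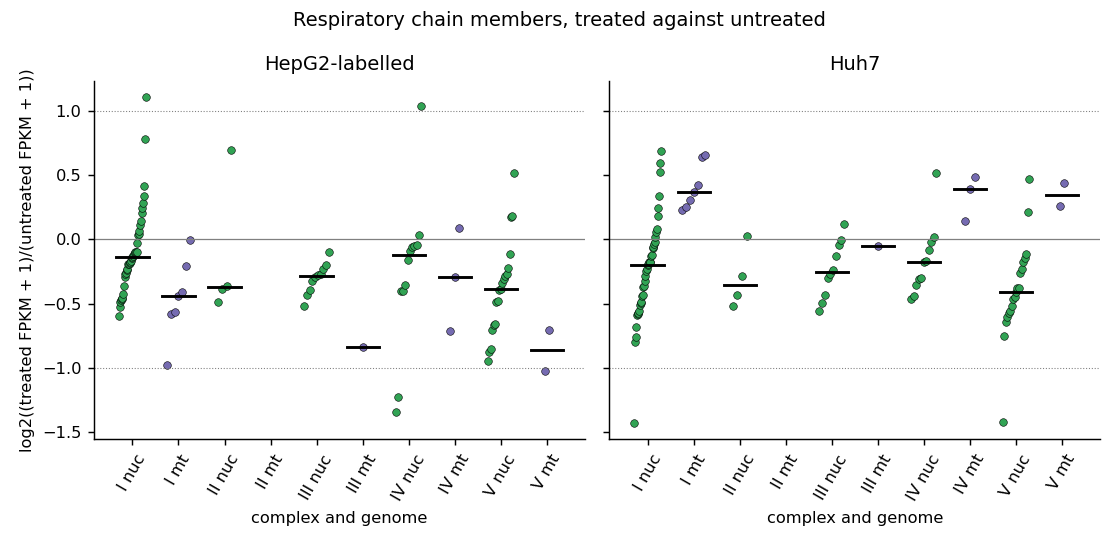
Log2 ratio of treated to untreated FPKM, with 1 added to each, for every measured member by complex and genome (nuc, nuclear in green; mt, mitochondrial in purple), with the median of each group as a black bar and 2-fold changes as dotted lines. The purple medians lie below 0 in HepG2-labelled cells and, except for MT-CYB in complex III, above 0 in Huh7, while the green medians lie below 0 in both.

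Nuclear members of complex V had the lowest medians of the 5 complexes in both lines, −0.39 in HepG2-labelled cells and −0.41 in Huh7, with 15 of 19 lower in both. The difference from complex II, at −0.37 and −0.36, was small. The 5 subunits of the F1 head, where ATP is made, had medians of −0.48 and −0.52. ATP5F1B, the catalytic beta subunit and the most abundant nuclear member of the complex, was at 516 and 370 FPKM in HepG2-labelled cells and at 482 and 337 FPKM in Huh7 (log2 ratios −0.48 and −0.52). The alpha subunit ATP5F1A was at 262 and 160 FPKM and at 110 and 71.8 FPKM (−0.70 and −0.61), and the delta subunit ATP5F1D at 29.7 and 15.7 FPKM and at 46.8 and 29.6 FPKM (−0.88 and −0.64). In the limma fit these 3 had treatment estimates of −0.50, −0.66 and −0.76 with adjusted p of 0.349, 0.291 and 0.294, so none passed. The epsilon subunit ATP5F1E, 23.2% of which overlaps TUBB1, stood apart at 103 and 95.7 FPKM and at 30.0 and 34.8 FPKM.

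The 3 genes of the proton-carrying c ring encode the same mature protein behind different import signals, and they did not share a direction. ATP5MC1 was at 94.1 and 51.7 FPKM in HepG2-labelled cells and at 81.6 and 47.9 FPKM in Huh7 (log2 ratios −0.85 and −0.76). ATP5MC3 was at 11.6 and 7.94 FPKM and at 31.7 and 21.3 FPKM (−0.49 and −0.55). ATP5MC2 was at 86.6 and 97.8 FPKM and at 70.0 and 97.5 FPKM, higher after treatment in both lines (0.17 and 0.47). After treatment ATP5MC2 was thus the most abundant of the 3 in both lines, where ATP5MC1 had been so before.

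ATP5MF, the small membrane subunit f, had the lowest ratio of the nuclear members of complex V in both lines, at 45.5 and 23.1 FPKM in HepG2-labelled cells and at 74.5 and 27.1 FPKM in Huh7. The log2 ratios were −0.95 and −1.43, the latter 2.69-fold lower, and the limma estimate over both lines was −1.19 ± 0.23 (SE), with an adjusted p of 0.212. The read-through transcript ATP5MF-PTCD1 joins this gene to its neighbour PTCD1 and was at 48.0 and 30.0 FPKM and at 34.7 and 29.5 FPKM, so the split of fragments between the 2 is uncertain. All 5 small membrane subunits were lower in both lines, with medians of −0.31 and −0.38, and the 4 peripheral stalk subunits had medians of −0.28 and −0.34. ATP5IF1, the inhibitor that stops ATP synthase from running backwards, had the highest ratio of complex V in HepG2-labelled cells, at 11.8 and 17.4 FPKM (0.52), and was at 11.8 and 10.3 FPKM in Huh7 (−0.17).

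Complex I, the largest complex, had nuclear medians of −0.14 in HepG2-labelled cells and −0.20 in Huh7, and 23 of 39 nuclear members were lower in both lines. Its 7 nuclear core subunits, which carry the flavin and iron-sulfur clusters, had medians of −0.17 and −0.17, and the other 32 of −0.11 and −0.21. NDUFA13, also known as the cell-death factor GRIM-19, was at 3.21 and 8.08 FPKM in HepG2-labelled cells and at 20.5 and 29.9 FPKM in Huh7 (log2 ratios 1.11 and 0.52), higher in both treated libraries and 2.15-fold higher in the HepG2-labelled one. Its limma estimate for treatment was 0.82 ± 0.27 (SE), with an adjusted p of 0.33. NDUFB1, an accessory membrane subunit, was at 11.4 and 15.5 FPKM in HepG2-labelled cells but at 15.8 and 5.22 FPKM in Huh7 (0.42 and −1.43), and the 2 lines thus went opposite ways. NDUFA6 had the lowest nuclear ratio of complex I in HepG2-labelled cells, at 28.2 and 18.3 FPKM, and was at 44.2 and 29.3 FPKM in Huh7 (−0.60 and −0.58). NDUFA12, an accessory subunit, had the highest ratio in Huh7, at 36.5 and 59.4 FPKM (0.69), and was at 29.1 and 35.6 FPKM in HepG2-labelled cells (0.28). NDUFB2, the most abundant nuclear member of complex I over the untreated libraries, though below NDUFS8 in treated Huh7, was at 166 and 141 FPKM and at 253 and 177 FPKM (−0.24 and −0.51), and 20% or more of it overlaps another gene.

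NDUFA4 carries a complex I name and was counted there, though its protein is a subunit of complex IV. It was at 75.9 and 53.8 FPKM in HepG2-labelled cells and at 99.4 and 87.7 FPKM in Huh7 (log2 ratios −0.49 and −0.18). Its hypoxia-induced relative NDUFA4L2 was at 4.44 and 8.33 FPKM and at 8.84 and 9.38 FPKM (0.78 and 0.08), lower than NDUFA4 in every library but closer to it after treatment.

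Complex II, the succinate dehydrogenase shared with the citric acid cycle, has no mitochondrial subunit, and 3 of its 4 members were lower in both lines. The flavoprotein SDHA was at 105 and 80.2 FPKM in HepG2-labelled cells and at 37.9 and 27.9 FPKM in Huh7 (log2 ratios −0.38 and −0.43). The iron-sulfur subunit SDHB, the most abundant of the 4, was at 141 and 100.2 FPKM and at 117 and 81.2 FPKM (−0.48 and −0.52), and the membrane anchor SDHD at 97.6 and 75.8 FPKM and at 53.2 and 43.4 FPKM (−0.36 and −0.29). The other anchor, SDHC, was at 13.4 and 22.4 FPKM and at 10.3 and 10.5 FPKM (0.70 and 0.02), and did not share the direction of its partners.

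In complex III, 9 of 10 nuclear members were lower in both lines, with medians of −0.29 and −0.25. CYC1, the cytochrome c1 that hands electrons to cytochrome c, was at 135 and 94.3 FPKM in HepG2-labelled cells, the lowest nuclear ratio there (−0.52), and at 134 and 134 FPKM in Huh7 (−0.01). UQCR10 was at 16.6 and 12.0 FPKM and at 40.5 and 27.2 FPKM (−0.43 and −0.56). UQCRH, the hinge protein and the most abundant nuclear member over the untreated libraries, though below UQCRC1 and CYC1 in treated Huh7, was at 245 and 201 FPKM and at 170 and 126 FPKM (−0.28 and −0.43). UQCRHL, a near-identical copy of UQCRH at 1.05 to 1.46 FPKM, had log2 ratios of −0.10 and 0.12, and reads of these 2 genes may be split uncertainly.

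In complex IV the nuclear medians were −0.12 and −0.18, and 8 of 11 members measured in both lines were lower in both. COX4I1, the common form of the regulatory subunit 4, was at 136 and 57.3 FPKM in HepG2-labelled cells and at 153 and 123 FPKM in Huh7 (log2 ratios −1.23 and −0.31), 2.35-fold lower in the former. COX7A2L, which joins complexes III and IV into supercomplexes, was at 34.8 and 13.1 FPKM in HepG2-labelled cells and at 14.3 and 21.0 FPKM in Huh7 (−1.35 and 0.52), so it was 2.54-fold lower in treated HepG2-labelled and higher in treated Huh7 cells. COX5A was at 42.1 and 31.6 FPKM and at 52.7 and 37.9 FPKM (−0.40 and −0.46), lower in both. COX6A1, the most abundant nuclear member, was at 502 and 486 FPKM and at 581 and 513 FPKM (−0.05 and −0.18), and COX8A, 20% or more of which overlaps another gene, at 355 and 364 FPKM and at 411 and 320 FPKM (0.03 and −0.36).

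The forms of complex IV subunits known from heart, muscle, lung or testis were near or at 0. COX6A2 and COX7B2 were listed at 0 in all 4 libraries, and COX4I2, COX7A1 and COX8C did not exceed 0.199 FPKM. COX6B2, known from testis, was listed at 0 in 3 libraries and at 1.05 FPKM in treated HepG2-labelled cells. It is counted past 2-fold with the pseudocount, but no fold can be given against a library listed at 0. Their common counterparts were well measured: COX6B1 at 36.4 and 28.3 FPKM and at 62.6 and 63.2 FPKM (log2 ratios −0.35 and 0.02), COX7A2 at 52.7 and 47.0 FPKM and at 147 and 119 FPKM (−0.16 and −0.30), and COX7B at 24.5 and 23.0 FPKM and at 27.9 and 26.3 FPKM (−0.09 and −0.08). Of 4 muscle markers, 0 reached 1 FPKM in any library (summed 0.0254 to 0.439 FPKM).

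**Figure D4:**
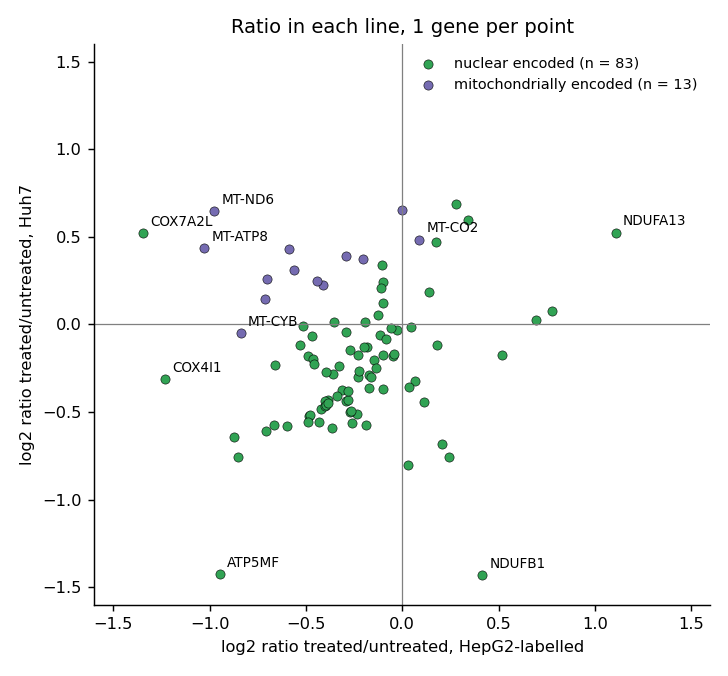
Log2 ratio of treated to untreated FPKM (1 added to each) in HepG2-labelled cells on the horizontal axis and in Huh7 on the vertical axis. Points are the 83 nuclear (green) and 13 mitochondrial (purple) members measured in both lines. Only some of the genes discussed in the text are named. Of the green points 58 lie in the lower left, and 11 of the purple points in the upper left.

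The median ratios of nuclear members with and without a promoter match lay below 0 for each motif in both lines. With the NRF1 core the medians were −0.25 in HepG2-labelled cells and −0.18 in Huh7 (10 members), and without it −0.20 and −0.29. With the ETS motif they were −0.17 and −0.29 (9 members), and without it −0.23 and −0.26. With the YY1 motif they were −0.23 and −0.19 (11 members), and without it −0.19 and −0.29. SDHD and ATP5F1C, whose matches are printed above, had ratios of −0.36 and −0.29, and of −0.40 and −0.46. ATP5MC1, without a match, was printed for its low ratios, so it is no comparison for these genes.

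Genes that copy the mitochondrial genome and make and handle its RNA had a median log2 ratio of −0.34 in HepG2-labelled cells and 0.08 in Huh7 (31 genes), and 13 of 31 (41.9%) were lower in HepG2-labelled and higher in Huh7 cells, with 12 (38.7%) lower in both, beside 21.0% and 23.3% of all genes. The Huh7 median was near 0 and turned to −0.0028 with size factors, when 15 of 31 were higher. ELAC2, which cuts the 3′ ends of tRNAs out of the precursor, was at 76.4 and 37.6 FPKM in HepG2-labelled cells and at 83.4 and 60.8 FPKM in Huh7 (−1.0 and −0.45). TRMT10C, a part of the enzyme that cuts the 5′ ends, was at 18.7 and 10.9 FPKM and at 9.32 and 11.8 FPKM (−0.72 and 0.31). FASTKD3 was at 10.4 and 9.76 FPKM and at 5.40 and 2.70 FPKM (−0.09 and −0.79), and POLG2, the accessory subunit of the mitochondrial DNA polymerase, at 4.34 and 7.93 FPKM and at 3.59 and 7.39 FPKM (0.74 and 0.87). TRMT10C thus had the directions of the mitochondrial genes in both lines, and ELAC2, FASTKD3 and POLG2 did not. With a pseudocount of 1, 1 of these 31 genes was 2-fold lower in HepG2-labelled cells, where 2.43% of all genes were. In Huh7 0 were past 2-fold, where 3.88% of all genes were higher and 2.19% lower. The pseudocount understates the change of low genes, and POLG2 in Huh7 was past 2-fold in the FPKM given above.

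The 50 assembly factors, which build the complexes without being part of them, had medians of −0.08 and −0.08, with 21 lower in both lines. NDUFAB1, listed with them, is also a complex I subunit. The largest absolute log2 ratios were those of COX16, SCO2 and COX18 in HepG2-labelled cells and of LYRM7 in Huh7, all of them lower. COX16 was at 34.2 and 17.3 FPKM in HepG2-labelled cells and at 10.8 and 14.1 FPKM in Huh7. SCO2, a copper chaperone of complex IV, was at 17.3 and 8.79 FPKM and at 28.5 and 31.5 FPKM. COX18 was at 5.70 and 2.88 FPKM and at 5.51 and 4.28 FPKM. LYRM7, of complex III assembly, was at 3.06 and 2.61 FPKM and at 2.94 and 0.791 FPKM. COX16 and SCO2 were lower in treated HepG2-labelled and higher in treated Huh7 cells, and LYRM7 was the 1 assembly factor past 2-fold, lower in Huh7. The 14 carriers and cytochrome c genes had medians of −0.08 and −0.10. Cytochrome c itself, CYCS, was at 48.4 and 27.4 FPKM and at 47.8 and 33.7 FPKM (−0.80 and −0.49), while the ADP/ATP carrier SLC25A6 was at 108 and 162 FPKM and at 130 and 173 FPKM (0.58 and 0.41). GPD2 had log2 ratios of −0.51 and 0.20, and AIFM1 of −0.12 and −0.54.

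Of 19 nuclear regulators of respiratory genes 17 were measured, with medians of 0.15 and 0.23. In each line 10 of 17 were higher, beside 6737 of 11843 and 7022 of 11945 of all measured genes. TFAM is counted both here and among the genes for mitochondrial RNA. MYC was at 4.92 and 5.58 FPKM in HepG2-labelled cells and at 7.51 and 18.1 FPKM in Huh7 (log2 ratios 0.15 and 1.17), the 1 regulator past 2-fold on the scale with a pseudocount of 1, which understates the change of low genes such as PPARD and GABPA. PPARA was at 2.92 and 4.85 FPKM and at 2.04 and 3.92 FPKM (0.58 and 0.69), and PPARD at 3.80 and 8.46 FPKM and at 3.80 and 4.45 FPKM (0.98 and 0.18). GABPA, the DNA-binding subunit of GABP, was at 5.26 and 2.54 FPKM and at 2.05 and 3.41 FPKM (−0.82 and 0.53), and so had opposite directions in the lines.

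Between the lines, with treatment as a block, the limma fit called 17 members higher and 9 lower in Huh7 than in HepG2-labelled cells at an adjusted p under 0.05, of 97 tested, where 18.6% of all 13030 genes were higher and 19.1% lower. The members named here were chosen after their values were seen. NDUFA13 differed most, by 2.06 ± 0.27 on the log2 scale (SE; limma adjusted p = 0.000936), and was above its HepG2-labelled levels in both Huh7 libraries. COX7A2 was higher in Huh7 by 1.39 ± 0.20 (limma adjusted p = 0.00166), and NDUFA7 by 1.46 ± 0.22 (limma adjusted p = 0.00206). ATP5ME was higher by 1.70 ± 0.20 (limma adjusted p = 0.000584), but 61.6% of it overlaps MYL5. On the other side, SDHA differed by −1.47 ± 0.21 (limma adjusted p = 0.00149), ATP5F1A by −1.20 ± 0.19 (0.00264) and SDHD by −0.83 ± 0.21 (0.0166). Of the 46 complex I members 9 were higher in Huh7, near the 18.6% of all genes. Of the 9 lower members, SDHA and SDHD are 2 of the 4 of complex II, and NDUFS5 and NDUFS6 are of complex I. The others were UQCRH of complex III and ATP5F1A, ATP5F1E, ATP5MPL and ATP5PB of complex V. MT-CYB was the only mitochondrial gene called, higher in Huh7 by 0.85 ± 0.24 (limma adjusted p = 0.0274). This estimate averages unlike log2 differences, 0.45 between the untreated and 1.24 between the treated libraries. MT-ND6, which was not called, differed by −0.17 between the untreated and 1.45 between the treated libraries. The spread in this fit is what line and treatment leave over, with 1 residual degree of freedom, so the call does not cover repeat cultures.

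**Figure D5:**
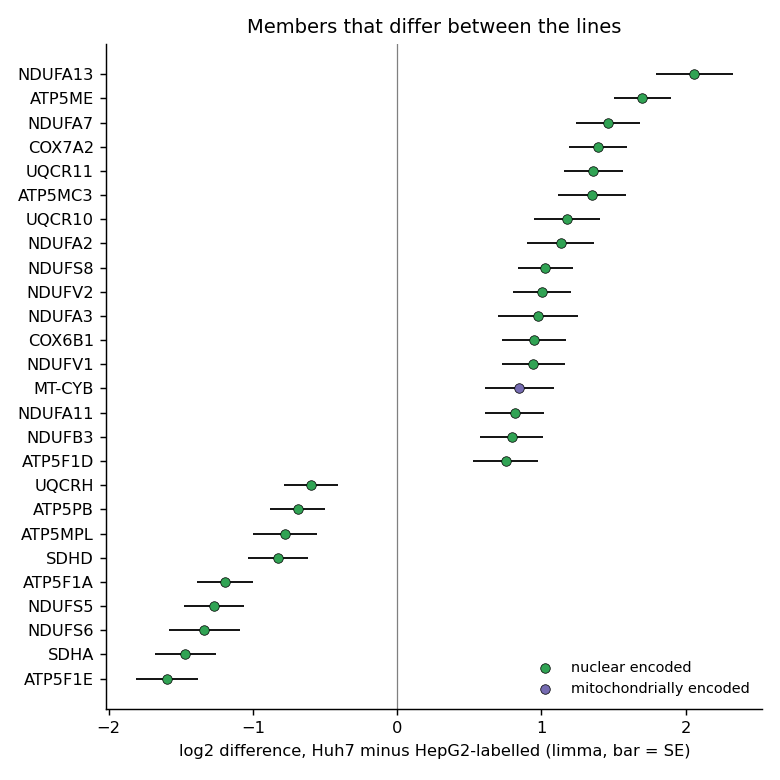
Log2 difference in level between Huh7 and HepG2-labelled cells (limma estimate, bars are 1 SE) for the 26 members with an adjusted p under 0.05, nuclear in green and mitochondrial in purple. The points run from −1.59 (ATP5F1E) to 2.06 (NDUFA13), and MT-CYB is the 1 purple point.

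In the authors' deposited table for treated against untreated HepG2-labelled cells, the KEGG pathway oxidative phosphorylation held 9 listed genes of 133, with a corrected p-value of 1. Of these 9, 5 are members here: COX4I2, NDUFA13, COX7A2L, COX6B2 and MT-ND6. In the authors' deposited table for Huh7 it held 6 of 133 with a corrected p-value of 1, and 3 are members: NDUFC2, NDUFC2-KCTD14 and COX7A1. The cut-off behind these gene lists is not stated in the sources used here. COX4I2 and COX7A1 were under 1 FPKM in all libraries.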

How the data were processed

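Gene expression was measured by RNA sequencing in 4 libraries, 1 per group. The authors deposited 1 FPKM value per coding gene and library, per the file headers. The submitters' processing notes name HISAT2, Bowtie2 2.2.8, Cuffdiff 2.1.1, StringTie 1.3.1, GATK, SAMtools 0.1.18 and Picard 1.96, with no roles. The strandedness, the annotation, the genome build and how transcripts were selected are not stated in the sources used here. Listed positions of 89 of the 103 members match GENCODE 29 (GRCh38) within 1000 bases at both ends. The authors also deposited pathway p-values and corrected p-values, with numbers of genes per pathway, per the file headers.

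FPKM is not a count, so no count model was fitted. It divides by a library total and a transcript length, so a gene's value depends on all others and on how fragments were split between overlapping genes. Depth was inferred from the step between low FPKM values of genes with 1 transcript. Only 48.0% to 51.3% of those values fell within 0.1 of a whole step, so no reads were recovered and the depth is approximate. Ratios used a pseudocount of 1 FPKM, which understates the change of low genes, and genes with 1 FPKM or more in at least 1 of a line's 2 libraries. Across libraries, log2(FPKM + 1) was fitted with limma 3.58.1 under R 4.3.3, with its trend of variance on level, terms for line and treatment, 1 residual degree of freedom, and Benjamini-Hochberg adjustment over 13030 genes. Libraries were paired by cell line. The script was tested on simulated data.

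Members and gene lists were chosen with earlier results of these data known. Genes named were set by rule: all mitochondrial members, members past 2-fold, and tissue-specific isoform pairs. Per complex, the rule added the highest and lowest nuclear ratio in each line and the most abundant nuclear member. Per list, it added up to 4 genes with the largest absolute log2 ratio in either line. ATP5F1A, ATP5F1C, ATP5F1D, ATP5F1E, SDHA, SDHD and the members named for the difference between lines were added after their values were seen. Members that overlap another gene by 20% or more, read-through transcripts and near-identical copies, 15 in all, were treated as uncertain. Alternatives were a pseudocount of 0.1, no filter, a minimum of 5 FPKM, 3 rescalings (equal FPKM sums, equal sums of nuclear genes, median-ratio size factors), a fold of 1.5, leaving out uncertain members, limma without a trend and, chosen after seeing the data, mitochondrial genes without the 3 MT-CO genes.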

Additional observations from a re-analysis of the deposited data

Results flagged for a closer look

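Several results went opposite ways in the lines, and with 1 library per group these differences were not tested. The median log2 ratio of the mitochondrially encoded members was −0.56 in HepG2-labelled cells and 0.37 in Huh7. MT-ND2 had log2 ratios of −0.59 and 0.43, MT-ND6 of −0.98 and 0.64, and MT-ATP8 of −1.03 and 0.44. For MT-ATP8 the 95% counting interval of the Huh7 ratio held no change, and 22.2% of the gene overlaps MT-ATP6. Among nuclear members, COX7A2L had log2 ratios of −1.35 and 0.52. NDUFB1 had the other order, with 0.42 in HepG2-labelled cells and −1.43 in Huh7.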

How the results depend on the processing

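The medians kept their sign in each line under every alternative run. The mitochondrial median ran from −0.61 to −0.50 in HepG2-labelled cells and from 0.26 to 0.38 in Huh7, and the nuclear one from −0.29 to −0.19 and from −0.39 to −0.25. Scaling by median-ratio size factors shifted all Huh7 ratios by −0.12, and the Huh7 medians were then 0.26 for mitochondrial and −0.39 for nuclear members, with 12 of 13 mitochondrial genes still above 0. The same scaling gave 5 members 2-fold lower in HepG2-labelled cells, and 29.6% of all genes and 75.9% of nuclear members lower in both lines. With equal FPKM sums 10 of 13 mitochondrial genes were lower in HepG2-labelled and higher in Huh7 cells. With a minimum of 5 FPKM 1 member was 2-fold higher in HepG2-labelled cells, since COX6B2 was left out. At 1.5-fold 4 members were higher and 15 lower in HepG2-labelled cells, and 4 higher and 9 lower in Huh7, by construction of the lower fold. MT-ATP8 was at −0.99 in HepG2-labelled cells with equal FPKM sums or equal sums of nuclear genes, short of 2-fold. Without the 3 MT-CO genes the mitochondrial medians were −0.57 and 0.34. The treatment fit called 0 members under all 7 alternatives, and the line fit called 14 to 22 higher and 7 to 11 lower. Leaving out a library was not possible with 1 per group. Depth limits the mitochondrial genes under 20 FPKM, of which MT-ATP8 rested on 31 fragments in treated HepG2-labelled cells.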
